A study of Rattus norvegicus with 12 samples.

Results

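Indian hedgehog (Ihh) and the hedgehog signalling pathway were followed in pituitaries taken from Wistar rat fetuses on gestational day 18. The rule named 9 genes: the ligands Ihh, Shh and Dhh, the receptor Ptch1, the transducer Smo, the transcription factors Gli1, Gli2 and Gli3, and the ligand-binding inhibitor Hhip. Probes were taken by these gene names, which gave 12 probes for 8 of the 9 genes, out of 30367 probes for 26290 genes on the array. Hhip had no probe under that name and was not analysed here. Ihh was chosen by its measured level, which was higher after exposure in these same arrays, so its difference is described and not tested. The other members were chosen for their place in the pathway.

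The 12 one-colour arrays fall into 4 groups of 3: male fetuses of dams exposed to TCDD, male controls, female fetuses of dams exposed to TCDD, and female controls. TCDD (2,3,7,8-tetrachlorodibenzo-p-dioxin) is the most studied dioxin, and its cellular receptor is the aryl hydrocarbon receptor, a ligand-activated transcription factor. All 4 groups share strain, tissue and stage. The labels give no dose, no day of dosing, no vehicle, and no word on pooling or on litters, so p-values measure the spread between these samples.

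Hedgehog proteins are secreted signals. In a cell that receives none, Ptch1 holds Smo inactive and Gli3 is processed to a repressor. When a ligand binds Ptch1, Smo is released, the Gli proteins activate transcription, and Ptch1, Gli1 and Hhip themselves are transcribed, so these genes serve as a standard readout of pathway activity. In mouse and zebrafish, Shh from the oral ectoderm and the ventral diencephalon patterns the early pituitary. Ihh is best known from the growth plate, where prehypertrophic chondrocytes secrete it, and Dhh from Schwann cells of peripheral nerves and from the testis.

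The Ihh result rests on 1 of 2 Ihh probes, so the probe letters matter. Probe positions are on the rn4 build as the files give them. The bright Ihh probe A_43_P15154 lies at chr9:74287130-74287189 on the minus strand. Only its last 30 bases are shown, because they hold the polyadenylation hexamer, here in capitals. The other Ihh probe, A_64_P065081, lies at chr9:74288362-74288421 on the same strand, and the starts of both probes are 1232 bases apart. It is shown beside the Shh probe A_64_P119002 at chr4:2208969-2209028 because both contain the same run of 11 bases, in capitals.
Ihh A_43_P15154, chr9:74287130-74287159: tgttttggtctttcttttgtAATAAAaatt
Ihh A_64_P065081: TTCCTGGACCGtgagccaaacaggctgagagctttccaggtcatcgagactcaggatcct
Shh A_64_P119002: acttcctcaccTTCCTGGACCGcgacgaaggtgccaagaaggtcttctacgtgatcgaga

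The longest run that the bright Ihh probe shared with a probe of another gene was 14 of its 60 bases. The same search gave 14 bases for the other Ihh probe and 13 for the Shh probe.

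Levels below are log2 of the background-corrected intensity after subtraction of each array's 75th percentile, so they compare arrays for one probe and not probes with each other. On the bright probe, Ihh stood at -1.21, -0.69 and -0.62 in male TCDD pituitaries, against -3.05, -3.14 and -2.44 in male controls. In females it stood at -0.94, -0.68 and -0.93 in TCDD pituitaries, against -2.30, -3.18 and -3.29 in controls. All 6 TCDD arrays lay above all 6 control arrays, and the probe was well above background on all 12. The unscaled intensities showed the same separation. They were 487.6, 650.2 and 665.1 in male TCDD arrays, against 113.2, 106.0 and 215.5 in male controls. They were 570.9, 592.2 and 658.7 in female TCDD arrays, against 197.5, 126.0 and 95.2 in female controls.

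The mean level of Ihh was -0.84 ± 0.32 in male TCDD pituitaries and -2.88 ± 0.38 in male controls (SD, n = 3 each), a difference of 2.04 or 4.11-fold. In females the means were -0.85 ± 0.15 with TCDD and -2.92 ± 0.54 in controls (SD, n = 3 each), a difference of 2.07 or 4.20-fold. Over both sexes the difference was 2.06 on the log2 scale (SE 0.20), which is 4.16-fold. It ranked 19th of 19364 genes by size of increase. In a bulk sample, a change in the number of cells that make a transcript and a change of its level per cell cannot be told apart.

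The arrays lay on 3 slides. On slide 1, which held the 3 male controls and 1 male TCDD array, the Ihh difference was 1.67. On slide 3, which held the 3 female TCDD arrays and 1 female control, it was 2.44. The remaining slide held no complete pair of groups within a sex.

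The second Ihh probe was dim. It was well above background on 1 of the 12 arrays, male TCDD 3. Its level was -7.11, -6.74 and -5.29 in male TCDD arrays, against -8.61, -8.37 and -8.82 in male controls. In females it was -8.63, -8.68 and -7.96 with TCDD, against -8.57, -8.36 and -8.65 in controls. The male groups did not overlap and the female groups did. No fold is given for this probe, since 1 TCDD array alone measured it.

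**Figure D1:**
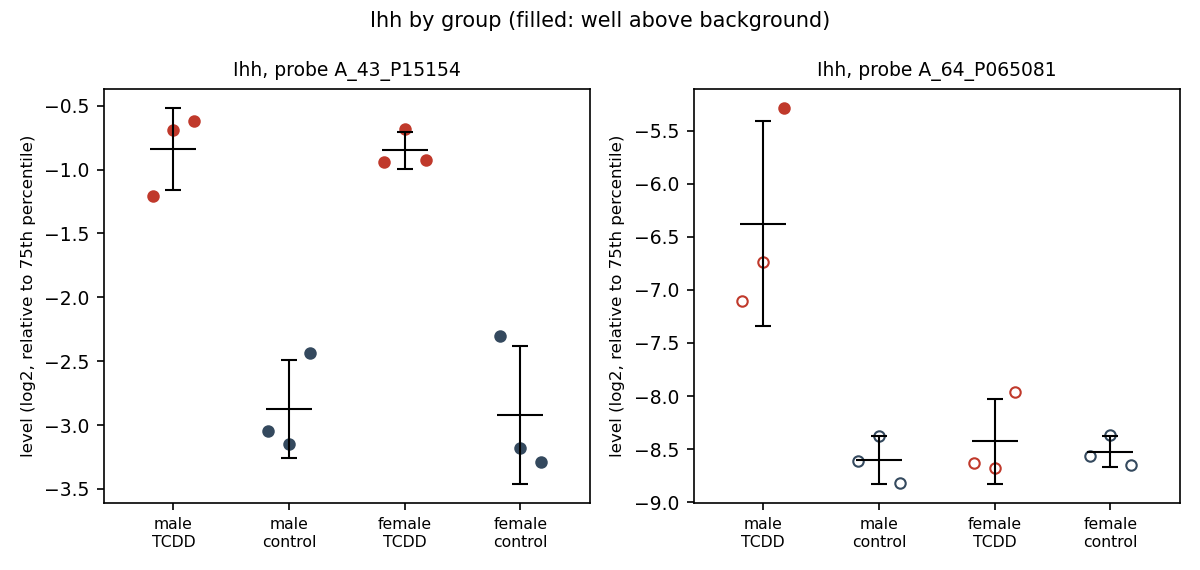
Level of the 2 Ihh probes (vertical axis, log2 minus the array's 75th percentile) in each group. Points are arrays, filled where the probe was well above background, and bars are the mean ± SD of 3 arrays. On the bright probe all 6 TCDD arrays lie above all 6 controls, and on the dim probe only male TCDD 3 is well above background.

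Among genes other than Ihh, 3 were higher with TCDD over both sexes at an adjusted p below 0.05 (limma, Benjamini-Hochberg over 19364 genes). Ahrr (limma adjusted p = 5.1e-06) and Cyp1a1 are classic targets of the aryl hydrocarbon receptor. Nqo1 is a quinone reductase of the same gene battery (2.44-fold, limma adjusted p = 0.0041). Cyp1a1 was well above background on all 6 TCDD arrays and on none of the 6 control arrays. It passed the filter only through its level with TCDD, so neither a fold nor a p-value is given for it. These 3 genes, all higher and Cyp1a1 included, were 0.0155% of the 19363 genes other than Ihh. An unadjusted p below 0.05 was found for 1249 genes of all 19364. Of each array's 42877 spots that were not controls, between 75.1% and 78.4% were well above background. Pairs of arrays correlated at 0.94 to 0.99. The anterior pituitary markers Cga, Pou1f1, Pitx1 and Lhx3 were well above background on all 12 arrays. A strong signal of sensory ganglion neuron and peripheral glia genes was carried by 6 arrays (male TCDD 1 and 2, female TCDD 1 and 3, male control 2, female control 2). Their sensory ganglion mean level was 0.05 to 1.40, against -3.28 to -2.74 on the other 6 arrays.

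The remaining ligands gave no called difference. Shh, the ligand best known from early pituitary patterning, was well above background on 0 of the 12 arrays, with intensities between 2.33 and 7.34. No fold is given for it. On this probe Shh did not rise to well above background on any TCDD array, and a difference below that level was not detectable.

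Dhh was measured on all 12 arrays at chr7:137667264-137667323. It stood at -1.21, -1.83 and -3.99 in male TCDD arrays, against -4.32, -2.78 and -4.17 in male controls. Female levels were -2.32, -4.30 and -3.06 with TCDD, against -4.29, -2.40 and -3.79 in controls. The groups overlapped in both sexes, and the arrays fell into high and low ones within every group. The difference over both sexes was 0.84 (95% interval -0.41 to 2.08, limma adjusted p = 0.671), with 1.41 in males and 0.27 in females. The second Dhh probe, well above background on 11 arrays, differed by 1.08 in males and 0.15 in females.

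The spread of Dhh within groups, an SD of 1.097, was larger than that of 96.2% of genes. The high Dhh arrays were the 6 that carried the ganglion signal, with Dhh at -3.06 to -1.21 there, against -4.32 to -3.79 on the other 6. Over 15 other peripheral glia markers, among them Sox10, a transcription factor of Schwann cells, the mean level was -1.86 to -0.51 on those 6 arrays and -3.07 to -2.67 on the rest. The summed level of these 15 markers spanned 9.19 to 53.7 in male TCDD arrays, against 9.91 to 19.5 in male controls, and 9.15 to 30.3 in female TCDD arrays, against 7.22 to 24.2 in female controls. The share of all genes that separate the 6 ganglion arrays from the other 6, as Dhh does, was not counted. Of the 6 ganglion arrays, 4 were TCDD arrays. Between TCDD and control arrays Dhh differed by 0.48 within the 6 arrays with the signal and by -0.0037 within the 6 without it. With the sensory ganglion marker mean as a covariate in the fit, the Dhh difference over both sexes was 0.17 (SE 0.17). The part of the glial signal itself in the Dhh difference was not tested.

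**Figure D2:**
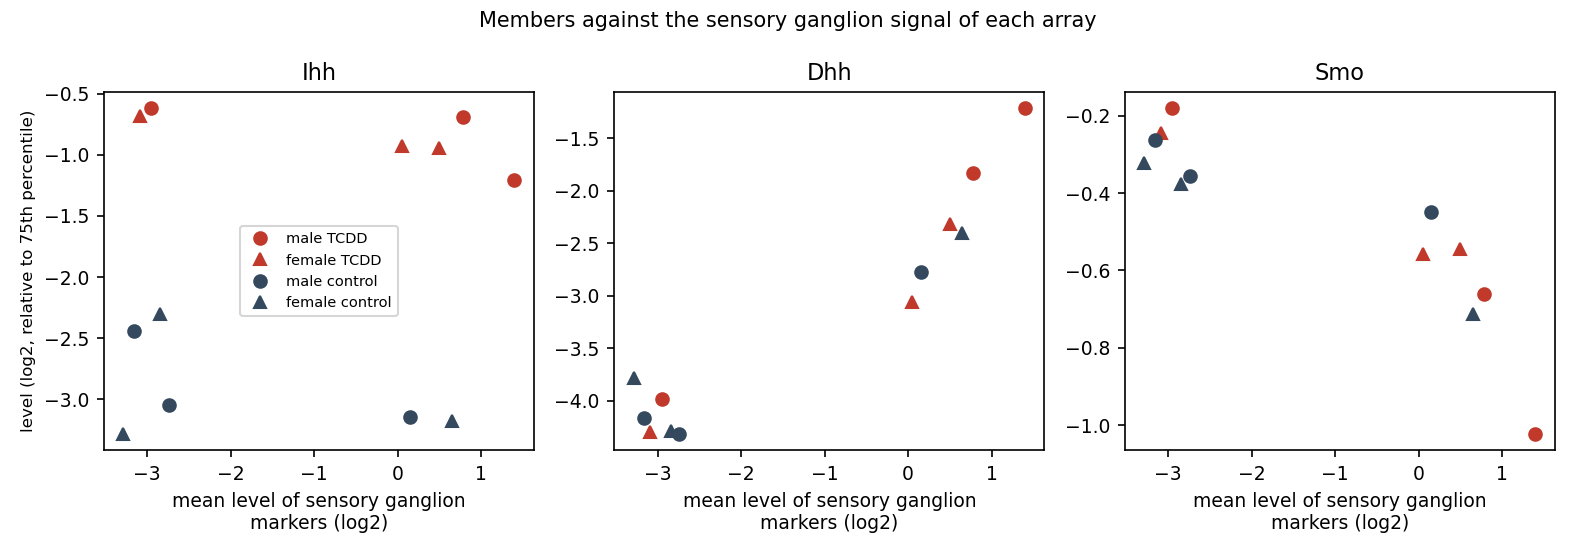
Level of Ihh, Dhh and Smo (vertical axes, log2 minus the array's 75th percentile) against the mean level of 30 sensory ganglion neuron markers (horizontal axis, same scale), 1 point per array, with sex by symbol and exposure by colour. Dhh is high and Smo low on the 6 arrays to the right, and Ihh is higher on TCDD than on control arrays on both sides.

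The Ihh difference was also read on each side of that division. It was 2.22 between TCDD and control arrays within the 6 arrays with the ganglion signal and 2.12 within the 6 without it. The only controls with the signal were male control 2 and female control 2. The only TCDD arrays without it were male TCDD 3 and female TCDD 2. The part of the ganglion signal in the Ihh difference was not tested.

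The question the pathway poses is whether the higher Ihh was accompanied by its usual targets. The probes of both measured targets are shown because this answer is read from them alone, Ptch1 at chr17:7142363-7142422 on the plus strand and Gli1 at chr7:67288638-67288697 on the minus strand (rn4). Neither shared more than 13 bases in a row with a probe of another gene.
Ptch1 A_64_P147263: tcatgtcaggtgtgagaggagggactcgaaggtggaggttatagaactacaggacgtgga
Gli1 A_44_P1054991: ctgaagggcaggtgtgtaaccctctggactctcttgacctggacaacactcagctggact

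Ptch1, the hedgehog receptor, stood at -3.68, -3.44 and -3.18 in male TCDD arrays, against -3.64, -3.48 and -3.71 in male controls. Female levels were -3.75, -3.26 and -3.45 with TCDD, against -3.17, -3.37 and -3.94 in controls. The groups overlapped in both sexes, and the highest and the lowest Ptch1 level were both on female control arrays. The difference over both sexes was 0.09 (SE 0.15, limma adjusted p = 0.822), or 1.06-fold with a 95% interval of 0.843 to 1.34.

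Gli1, a transcriptional activator, stood at -2.08, -1.79 and -1.87 in male TCDD arrays, against -1.95, -2.15 and -1.72 in male controls. In female arrays Gli1 stood at -2.02, -1.22 and -1.66 with TCDD, against -1.87, -2.09 and -2.10 in controls. Female TCDD 2 and 3 lay above every control array and female TCDD 1 did not. The difference over both sexes was 0.21 (SE 0.14, limma adjusted p = 0.671), or 1.15-fold with a 95% interval of 0.938 to 1.42. It was 0.03 in males and 0.38 in females, and the difference between the sexes was not called (adjusted p = 0.883).

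The slide and ganglion divisions moved these small values. On slide 1, Ptch1 differed by -0.07 and Gli1 by -0.14 between the male TCDD array and the male controls. On slide 3, Ptch1 differed by 0.45 and Gli1 by 0.46 between the female TCDD arrays and the female control. Within the 6 arrays with the ganglion signal Ptch1 differed by -0.16 and Gli1 by 0.23. Within the 6 without it Ptch1 differed by 0.39 and Gli1 by 0.37, the highest differences over both sexes among the 27 alternatives. The TCDD side of these values is male TCDD 3 and female TCDD 2 alone, so no p-value is given here.

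The deviations of arrays from their group means were also set side by side for Ihh and its targets. Over the 12 deviations from group means, Ihh and Gli1 correlated at r = 0.65 (rho = 0.80), with an exact two-sided permutation p of 0.0023 for each over 1296 arrangements within groups, and 0.0046 adjusted over the 2 targets. Without the 2 arrays farthest in Ihh, r was 0.62. The same measure for Ptch1 was r = 0.57 (exact permutation p = 0.171, adjusted 0.171) and rho = 0.55 (exact permutation p = 0.147), with r = 0.62 without those 2 arrays. A correlation with Ihh at least as high as that of Gli1 was reached by 14.2% of all genes, and one at least as high as that of Ptch1 by 23.5%. Members that are not targets had deviations correlated with Ihh to a similar extent, at r = -0.61 for Dhh, 0.55 for Smo and 0.56 for Gli2, given as descriptions. The deviations of the ganglion marker mean correlated at -0.53 with those of Ihh and at -0.64 with those of Gli1, and the part of the ganglion signal in these correlations was not tested.

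The RefSeq promoter of Ptch1 (GRCr8 build) contains the Gli consensus letters TGGGTGGTC, starting 172 bases before the gene start. The stretch is shown because Ptch1 is the target whose level would report Gli activity, with the consensus in capitals.
Ptch1 promoter, chr17:1555374-1555432, plus strand: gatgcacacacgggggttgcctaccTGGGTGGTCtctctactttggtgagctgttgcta

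On both strands these letters occurred in 129 of 33469 promoters of 300 bases each, or 0.385%. Promoters were given for 6 of the 9 members (Dhh, Ptch1, Smo, Gli2, Gli3 and Hhip), and Ptch1 held the only match among them. GCGTG, the core of the aryl hydrocarbon receptor's binding site, was also searched on both strands. It occurred in 29.7% of all promoters and, among the 6, once each in Gli2 and Gli3. A match describes letters only.

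The transducers that act between receptor and target gave no called difference. Smo, the membrane protein that Ptch1 holds inactive, stood at -1.02, -0.66 and -0.18 in male TCDD arrays, against -0.36, -0.45 and -0.26 in male controls. In female arrays Smo stood at -0.54, -0.24 and -0.56 with TCDD, against -0.38, -0.71 and -0.32 in controls. Its difference over both sexes was -0.12 (95% interval -0.43 to 0.18, limma adjusted p = 0.734). Smo stood at -1.02 to -0.45 on the 6 ganglion arrays and at -0.38 to -0.18 on the other 6. The share of all genes that separate these arrays in the same way was not counted, so this is not read as particular to Smo.

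Gli2, the main activator of the response, stood at -1.80, -1.23 and -0.69 in male TCDD arrays, against -0.92, -1.21 and -0.75 in male controls. In females it stood at -0.79, -0.46 and -1.16 with TCDD, against -0.83, -1.28 and -0.70 in controls. The groups overlapped, and the difference over both sexes was -0.08 (95% interval -0.51 to 0.36, limma adjusted p = 0.891). A second Gli2 probe was well above background on 0 arrays.

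Gli3, the main repressor, stood at -4.63, -4.35 and -3.62 in male TCDD arrays, against -3.94, -4.06 and -3.82 in male controls. In females it stood at -3.86, -3.41 and -4.40 with TCDD, against -3.75, -3.89 and -3.72 in controls. The difference over both sexes was -0.18 (95% interval -0.62 to 0.26, limma adjusted p = 0.729). A second Gli3 probe was well above background on 3 arrays, in 3 different groups, and no difference is read from it.

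Smo, Gli2 and Gli3 were all lowest on male TCDD 1, the array with the strongest ganglion signal. Their deviations from group means ran together over the 12 arrays, at r = 0.96 for Smo and Gli2, 0.85 for Smo and Gli3, and 0.91 for Gli2 and Gli3. These are descriptions over arrays that share the ganglion division.

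**Figure D3:**
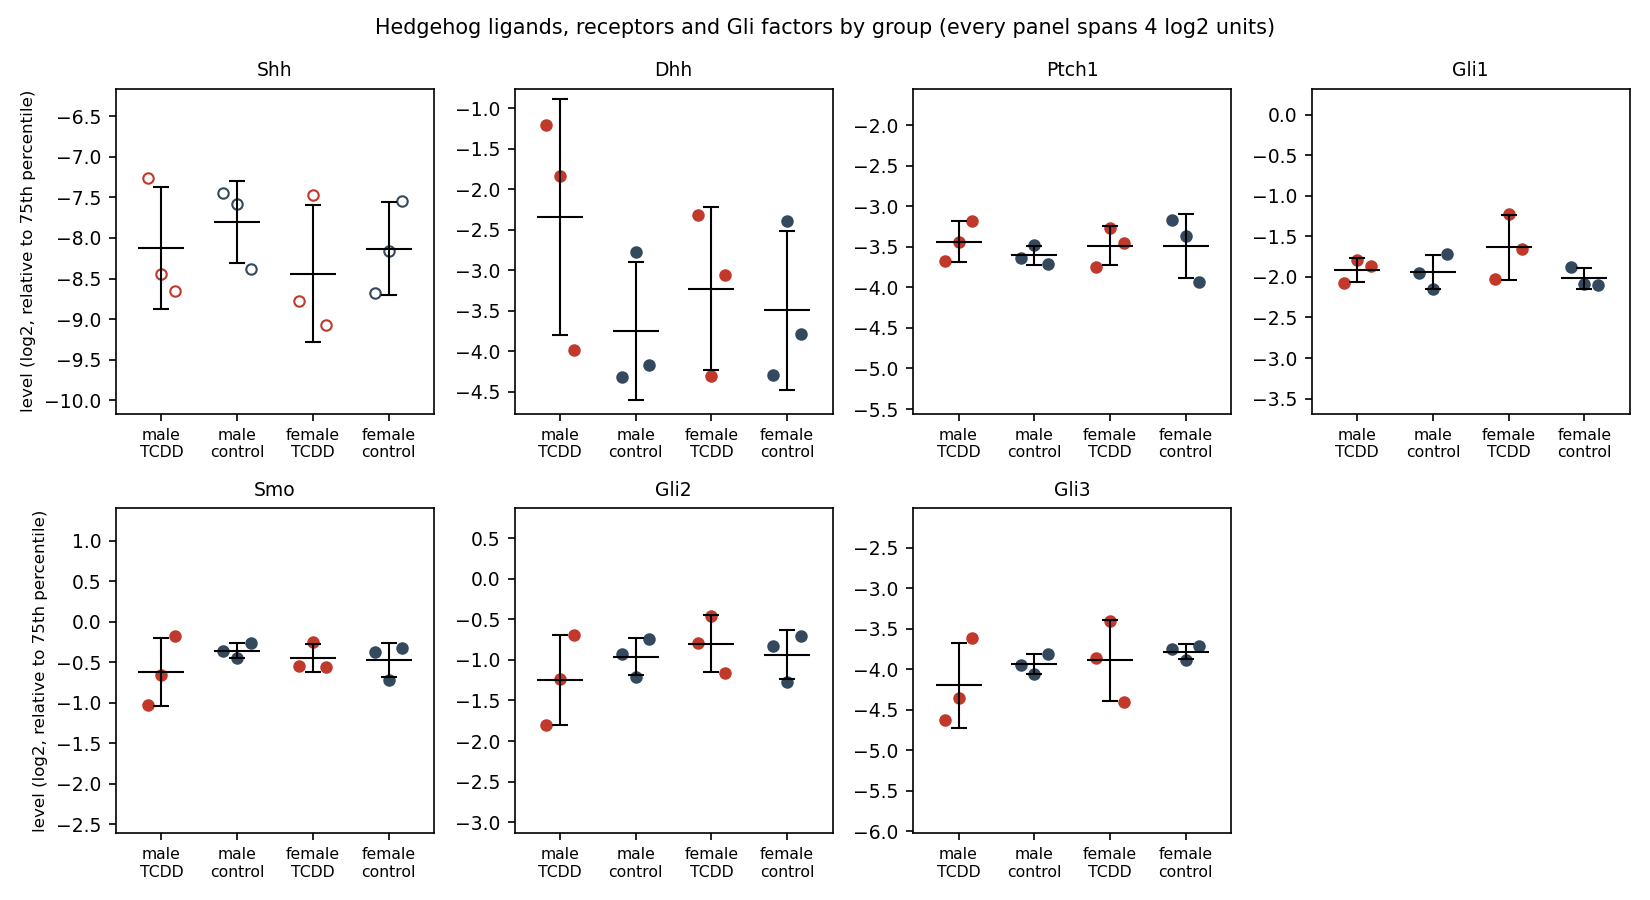
Level of the other 7 members (vertical axes, log2 minus the array's 75th percentile, each panel spanning 4 log2 units) by group, with 1 point per array, filled where the probe was well above background, and bars for the mean ± SD of 3 arrays. TCDD and control arrays overlap in every panel.

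None of the 6 tested members, Ihh not among them, was called over both sexes (0.0155% of genes other than Ihh were). None of the 6 had an unadjusted p below 0.05 in this fit. Under some of the alternative settings 1 member did, as given with the processing alternatives. Their limma adjusted p ranged from 0.671 to 0.891. TCDD arrays lay above control arrays with no overlap in both sexes for 0.294% of the genes other than Ihh and below them for 0.372%, and none of the 6 members did so.

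**Figure D4:**
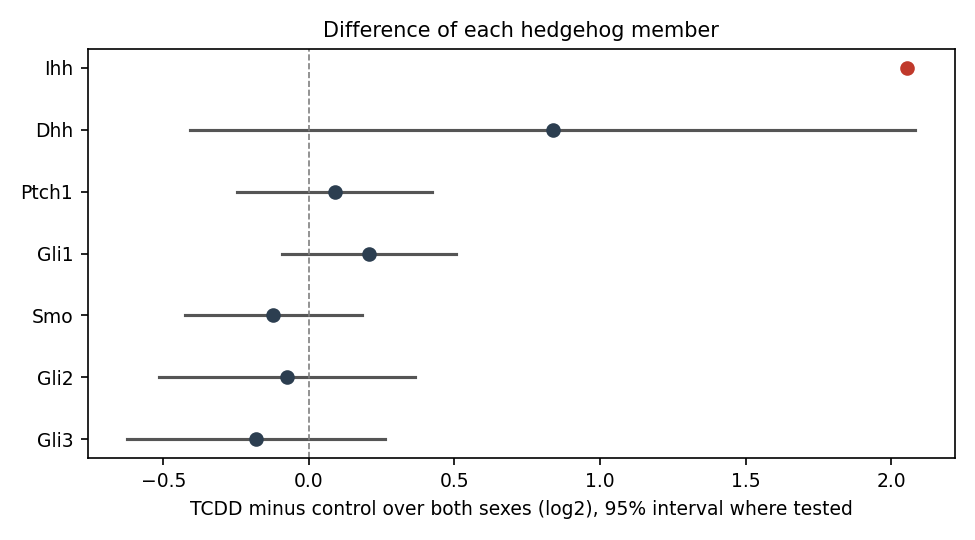
Difference between TCDD and control over both sexes (horizontal axis, log2) of the 7 measured members, with 95% intervals from the limma fit for the 6 that were tested. Ihh, chosen for its difference, is shown as a point at 2.06, and the intervals of the other 6 include 0.

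The effect of TCDD on the members was not called as different between males and females (0 of 7, limma adjusted p 0.883 to 0.987, with 0% of all genes called and 865 genes at an unadjusted p below 0.05). For Ihh the male effect minus the female effect was -0.03. Male and female controls did not differ beyond the threshold in any of the 7 members either, with male minus female differences between -0.26 and 0.11 and a limma adjusted p of 1.0. That comparison called 0.0103% of all genes, and 1066 genes had an unadjusted p below 0.05.

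Other genes of the pathway were taken from lists by role. Of genes that process and release ligands, 11 of 14 were tested and none was called (1 at an unadjusted p below 0.05). Their median difference was -0.04, beside -0.02 over all genes. Disp1 and Disp2 belong to the family whose founding member releases hedgehog from the secreting cell, and they differed by -0.12 and 0.55 (limma adjusted p = 0.693 and 0.671). The probe of Hhat, the acyltransferase that palmitoylates hedgehog proteins, was well above background on 0 arrays.

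Of co-receptors and receptor partners, 7 of 10 were tested and none was called, none of them at an unadjusted p below 0.05 (median difference 0.06). Cdon, a co-receptor for hedgehog ligands, differed by -0.13, and Gpr161, a ciliary receptor that restrains the pathway, by 0.31 (limma adjusted p = 0.787 and 0.777). Boc, Gas1 and Scube2 were not analysed here.

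Of cytoplasmic regulators of Gli, 19 of 22 were tested and none was called or reached an unadjusted p below 0.05 (median difference 0.02). Sufu, which retains Gli proteins, differed by 0.02. Kif7, a ciliary kinesin, differed by 0.07, and Spop, a ubiquitin ligase adaptor for Gli2 and Gli3, by -0.07. Of primary cilium transport genes, 18 of 19 were tested, with the same counts of 0 and a median difference of -0.06. The motor subunit Kif3a differed by 0.25 and the transport protein Ift88 by 0.13.

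Of 46 other reported hedgehog targets, 36 were tested and none was called by limma. Differences were above 0 for 11 and below 0 for 25, with a median of -0.08. Of the 36, 5 had an unadjusted limma p below 0.05, beside 1249 of all 19364 genes. Ccnd1 and Ccnd2, cyclins that drive entry into the cell cycle, differed by -0.34 and -0.39 (SE 0.12 each, adjusted p = 0.671 for both). Mycn, a growth-promoting transcription factor, differed by 0.23, and Bcl2, which restrains apoptosis, by 0.07. The signalling factor Bmp4 differed by -0.24. Pthlh, the hormone-like factor that Ihh induces in the growth plate, differed by 0.23 (95% interval -0.02 to 0.48, adjusted p = 0.671). Prdm1, a transcriptional repressor chosen here after its value was seen, had the highest difference of the list at 0.75 (adjusted p = 0.639). Foxf1, Foxf2 and Nkx2-2 were not analysed here.

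**Figure D5:**
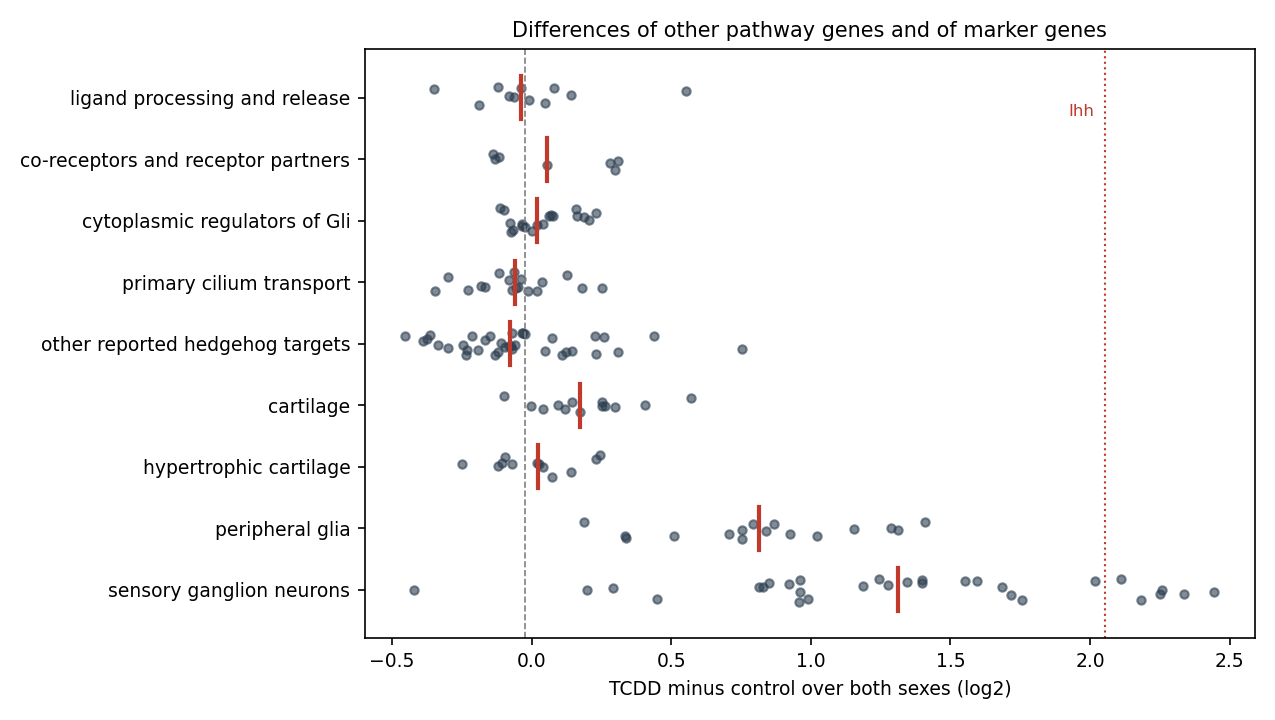
Difference between TCDD and control over both sexes (horizontal axis, log2) of each tested gene in 5 pathway lists and 4 marker lists. Red bars are list medians, the dashed line is the median of all genes at -0.02, and the dotted line is Ihh. The pathway lists centre between -0.08 and 0.06.

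Because Ihh is made by cartilage, cartilage markers were set beside it. Of 19 cartilage genes 13 were tested, none was called, and the median difference was 0.17, with 11 above 0. Their summed level was 11.9 to 13.3 in male TCDD arrays, against 10.4 to 13.3 in male controls. In females it was 10.68 to 16.3 with TCDD, against 11.7 to 12.4 in controls. Col2a1, the main cartilage collagen, stood at 1.41 to 2.30 in TCDD arrays and 1.31 to 1.89 in controls. Acan, the cartilage proteoglycan, was well above background on 5 arrays, 3 with TCDD and 2 controls. Col10a1, the collagen of hypertrophic chondrocytes, was well above background on 1 TCDD and 1 control array at its brightest probe, and on 2 TCDD arrays and 1 control array at the probe that was kept. The 12 hypertrophic cartilage markers had a median difference of 0.02, and Pth1r, the receptor for Pthlh, differed by 0.04. The part of cartilage in the Ihh difference was not tested.

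Markers of other cell types were measured on the same arrays, and no gene in these lists was called. Of 20 anterior pituitary markers, 19 were tested and 18 were lower with TCDD, with a median of -0.46. Of the 19, 10 had an unadjusted limma p below 0.05, beside 1249 of all 19364 genes. All 13 tested skeletal muscle markers were lower, with a median of -0.41. The myosin genes Myh6, Myh7 and Myh13, which are not in that list, went the other way (1.48, 1.38 and 1.60). The 30 tested sensory ganglion markers had a median of 1.31. Their mean level differed by 0.28 within the 6 arrays with the ganglion signal, 4 of which were TCDD arrays, and by -0.01 within the other 6. The part of this uneven division in the values of the other lists was not tested. The medians were -0.25 for 10 genes of the posterior lobe and ventral hypothalamus, -0.18 for 14 of oral and stratified epithelium, -0.04 for 14 of endothelium, -0.10 for 15 of fibroblasts and 0.00 for 10 of bone.

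Genes near Ihh on chromosome 9 were read from the same fit. Within 250 kb of the bright probe, 20 of 23 genes with a probe were tested besides Ihh and none was called. Their differences ran from -0.53 (Cyp27a1) to 0.55 (TC599571), with a median of 0.02 and a lowest limma adjusted p of 0.671, and none had non-overlapping groups in both sexes. The nearest, Nhej1, a DNA repair factor 22.4 kb away, differed by 0.13. The Wnt ligands Wnt6 and Wnt10a differed by -0.43 and 0.03.

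Over the 12 arrays and 13471 genes with a symbol, the genes whose levels were most like Ihh by Pearson correlation were Ssh2 (0.96), Myh7 (0.96), Myh6 (0.96), Cyp1a1 (0.95), Ahrr (0.94), Aldh1a1 (0.93), Myh13 (0.92) and Nqo1 (0.91). Ihh was chosen for its difference between TCDD and control arrays, so this ranking favours genes that differ between them too and is a description only. The value for Cyp1a1 includes 6 control arrays on which it was not well above background. Between TCDD and control, Ssh2 differed by 0.39, Myh7 by 1.38, Myh6 by 1.48, Aldh1a1 by 1.02 and Myh13 by 1.60. Myh6 and Myh7 are near-identical myosin genes, so their probes may read a common signal. After the 4 group means were taken out, the most alike were Ino80 (0.98), Stat5b (0.98), Krr1 (0.97), Kif15 (0.95), Erp29 (0.94), Dmtf1 (0.94), Ptp4a1 (0.94) and Reps1 (0.93). No pathway member was among either set of 8, a small part of the 13471 genes compared, so nothing is read from their absence.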

How the data were processed

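The scanner files that the authors deposited give a linear intensity for each spot, written by Agilent Feature Extraction 10.7.1.1 per the file headers (the submitters' processing notes name 9.5.1.1). The authors' deposited table of values is on an intensity scale as well. All its columns have a median of 83.5 and rank probes as the scanner values do (Spearman 1), so its scale was taken as linear after quantile normalization, a step inferred from the equal distributions. With 1 colour there is no direction to determine.

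Control and outlier-flagged spots were dropped, log2 of the background-corrected intensity was centred on each array's 75th percentile, and spots of a probe were averaged. Probes well above background on at least 3 of 12 arrays with at least 10 values were kept (22430 of 30367, and 9 of the 12 member probes), and the brightest of them stood for its gene, giving 19364 genes. RefSeq accessions named 18394 probes, symbols a further 2464, and 9509 kept the name in the files. A mean per group was fitted on all 12 arrays with limma 3.58.1 in R 4.3.3, with moderated variances that follow intensity and Benjamini-Hochberg adjustment across all genes at 0.05. The fit was tested on simulated data. The number of arrays limits the precision.

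The members and gene lists were chosen with earlier results of these data known. Named genes were the members, listed pathway genes and targets, defining markers, the neighbours within 250 kb and the 8 genes most like Ihh by each measure. Some genes under this rule are not reported here. Alternatives covered background correction, normalization, filters, probe choice, slide, replicate number, the ganglion signal and leaving out each array. Same-numbered arrays were not paired, since the deviations of the 6 pairs correlated between -0.70 and 0.44.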

Additional observations from a re-analysis of the deposited data

How the results depend on the processing

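None of the 6 members other than Ihh was called under any of 27 alternatives, for the difference between TCDD and control, between the sexes' effects, or between control males and females. The Ihh difference stayed between 1.67 (normexp background correction) and 2.22, and leaving out each array gave 1.96 to 2.21. Counts of called genes were taken over all fitted genes, Ihh among them, and no test of its TCDD difference is given. The number called over both sexes was 4 in the main setting, 15 with slide as a fixed block, 2 with the replicate number as a block, 11 with a covariate for the ganglion markers, 0 without the 6 ganglion arrays (540 at an unadjusted p below 0.05) and 1 with those 6 alone, an alternative chosen after seeing the data. Leaving out each array gave 4 to 9, with 9 without male TCDD 1 and 7 without female control 1. Differences between the sexes' effects numbered 6 with slide as a fixed block. Control males and females differed in 1 gene with normexp, 1 when every probe had to be well above background on all 12 arrays, 10 with slide as a fixed block, 0 both without and with only the ganglion arrays, and 1 to 2 when each array was left out (1 without male control 2). Small member differences changed sign: Gli3 to 0.15 with the mean of its kept probes; Smo to 0.024 and Gli2 to 0.14 with the ganglion covariate; Dhh to -0.0037, Smo to 0.12, Gli2 to 0.22 and Gli3 to 0.29 without the ganglion arrays; and Ptch1 to -0.16 with only those. Leaving out each array gave -0.023 to 0.17 for Ptch1, where the value below 0 came without female control 3, and -0.21 to 0.065 for Gli2, with 0.065 without male TCDD 1 and 0.015 without female TCDD 3. It gave 0.10 to 0.30 for Gli1 (0.10 without female TCDD 2), 0.55 to 1.25 for Dhh (0.55 without male TCDD 1), -0.23 to -0.021 for Smo (-0.23 without male TCDD 3, -0.021 without male TCDD 1) and -0.33 to -0.053 for Gli3 (-0.33 without male TCDD 3, -0.053 without female TCDD 3). Dhh was 1.55 with slide as a fixed block and 0.17 with the ganglion covariate. An unadjusted limma p below 0.05 was reached by Smo with slide as a fixed block (-0.40, adjusted p = 0.189). In that setting 4745 of 19364 genes reached it. Gli1 reached it with the ganglion covariate (0.31, adjusted p = 0.741), where 1176 of 19364 genes did. Leaving out female TCDD 1 gave the same for Gli1 (0.30, adjusted p = 0.921), and leaving out male TCDD 3 for Dhh (1.25, adjusted p = 0.215). Without the ganglion arrays Gli1 differed by 0.37, and no p-value is read there, since 1 TCDD array per sex remained. The causes were not tested, and the dim second Ihh probe and Shh are limited by signal near background.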
